A study of Caenorhabditis elegans with 5 samples.

Results

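The genes described here maintain, copy and transcribe the mitochondrial genome, or sense the energy state of the cell and act upstream of mitochondrial biogenesis. They were chosen by symbol as 7 rows of the count tables, hmg-5, polg-1, mtss-1, rpom-1, aak-1, aak-2 and sir-2.1, out of 45251 genes, and all 7 had a row. They were chosen for their function, with earlier results of these data known.

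RNA came from whole wild-type N2 nematodes (Caenorhabditis elegans) between the last larval stage and adulthood. The worms were kept for 24 h at 20 °C, on agar seeded with E. coli OP50 that held either bisphenol TMC (BPTMC) or dimethyl sulfoxide (DMSO), the solvent taken here as the control. The labels give 1 mM for both chemicals, and there were 3 BPTMC and 2 DMSO libraries of the 3′ tag type. No label ties a replicate to its own culture, so a p-value here reflects only how far these samples lie apart, and that distance may be technical.

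Mitochondrial DNA is packaged in nucleoids by a high-mobility-group protein (TFAM in mammals, HMG-5 in worms), copied by DNA polymerase gamma on strands held open by a single-strand binding protein, and transcribed by a phage-type RNA polymerase. In C. elegans the growth of the germ line goes together with a large rise in mitochondrial DNA copies. AMP-activated protein kinase (AMPK) responds to low cellular energy, and sirtuins are deacetylases that need NAD+; both are linked to mitochondrial biogenesis and to lifespan in worms.

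None of the 7 genes changed between BPTMC and DMSO by the test used, and in each of them the BPTMC and DMSO libraries overlapped. In 6 of the 7 genes, the 2 DMSO libraries lay further apart than the group difference. The DMSO gap was taken on the log2 scale with 0.5 CPM added. The same was the case for 53.6% of all tested genes. Single libraries vary more than group means do, so this comparison is no test of a group difference. In polg-1 the gap and the group difference were nearly equal (0.134 and 0.141), and without the added 0.5 CPM the gap was the larger there too. hmg-5, and less closely mtss-1 and sir-2.1, followed the level of mitochondrial mRNA from library to library. rpom-1 and polg-1 were lowest in the BPTMC library with the lowest summed germline markers.

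All 7 genes passed the filter on low counts. edgeR's quasi-likelihood test called 0 of 7, where it called 15 of 14238 genes (0.105%) higher and 0 (0%) lower. DESeq2 also called 0 of 7, with 238 of all genes higher and 3 lower, and limma-voom 0 of 7, with 1 gene higher and 0 lower. An unadjusted p under 0.05 was reached by 0 of 7, where 7% of tested genes reached it as higher and 0.4% as lower. In 0 of 7 genes did every BPTMC library lie above or below every DMSO library, where 13.4% of tested genes lay above and 9.96% below. The log2 fold change was negative in 6 of 7 with a median of -0.14; over all tested genes 54.5% were negative and the median was -0.087. Levels are library-size-scaled counts (CPM) adjusted by the trimmed mean of M-values (TMM), fold changes carry a standard error (SE) and 95% intervals, and the threshold for a call was an adjusted p of 0.05.

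**Figure D1:**
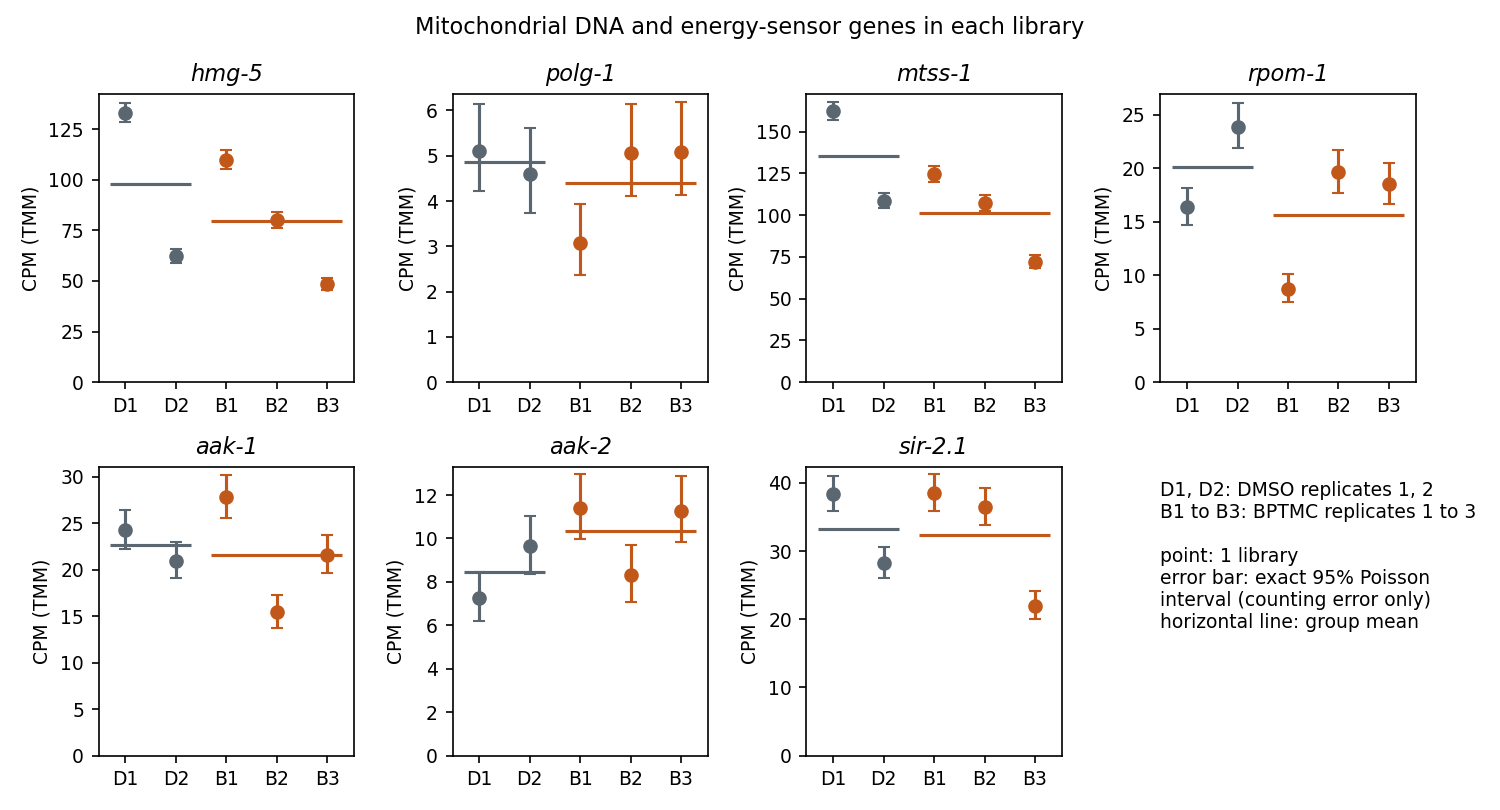
TMM-scaled CPM (vertical axis, from 0) of each gene in each library (horizontal axis), with exact 95% Poisson intervals as error bars and the group means as horizontal lines. In all 7 panels the orange BPTMC points and the grey DMSO points overlap in range.

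Libraries held 16531114 to 24362712 counts, and 33 of 36 markers of germ line, oocytes, sperm, intestine, muscle, pharynx, neurons and hypodermis had a read in every library, as a whole-worm sample should have. BPTMC replicate 1 stood apart: its summed germline markers were at 210.3 CPM against 563 to 816 in the others, and its oocyte markers at 564 CPM against 1460 to 4148. The counts behaved as if taken over the gene span without regard to strand. Of 33 genes with at least 500 reads in every library that sit in an intron on the opposite strand, 32 had a host gene with at least as many reads (within 5%). On the same strand 3 of 4 did. How often a host has more reads through its own expression was not tested.

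Per kilobase of exon, mtss-1 stood highest, at 219 ± 61.7 CPM per kb in DMSO (SD, n = 2) and 164 ± 43.3 in BPTMC (SD, n = 3). hmg-5 followed at 121 ± 62.0 and 98.3 ± 38.0 CPM per kb, then sir-2.1 at 16.4 ± 3.51 and 15.9 ± 4.41, and aak-1 at 9.67 ± 0.987 and 9.25 ± 2.65. rpom-1 (5.53 ± 1.46 and 4.29 ± 1.64 CPM per kb), aak-2 (3.47 ± 0.693 and 4.25 ± 0.717) and polg-1 (1.47 ± 0.107 and 1.33 ± 0.347) were the lowest. The library ranges of mtss-1 and hmg-5 overlapped, as did those of sir-2.1 and aak-1 and those of rpom-1 and aak-2, while the other neighbours in this order were separate. In a 3′ tag library the number of reads need not scale with length, so the division can raise short genes against long ones. The sizes of these values are therefore not comparable between genes. Without it, the DMSO means were 136 CPM for mtss-1 and 4.86 CPM for polg-1. The order of the mean levels was the same without dividing by length. The library ranges of aak-1 (15.4 to 27.8 CPM) and rpom-1 (8.75 to 23.9 CPM) then overlapped.

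hmg-5 encodes the protein that coats mitochondrial DNA. It lies on chromosome IV from 7644895 to 7646219 on the minus strand of WBcel235 (WBGene00001975), a protein-coding gene with 808 bases of exon. Its level was 133 and 62.2 CPM in DMSO replicates 1 and 2, and 109.9, 80.0 and 48.5 CPM with BPTMC replicates 1, 2 and 3. The highest and the second lowest library were both DMSO, and the 2 DMSO values differed 2.14-fold. The group means were 97.6 ± 50.1 CPM (SD, n = 2) and 79.4 ± 30.7 CPM (SD, n = 3), which gave a log2 fold change of -0.30 ± 0.48 (SE; edgeR adjusted p = 0.844), with a 95% interval from 0.380-fold to 1.74-fold. The direction turned when DMSO replicate 1 (log2 fold change 0.34) or BPTMC replicate 3 (0.069) was left out.

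mtss-1 encodes the mitochondrial single-strand DNA binding protein, which keeps the replicating strand open. It lies on chromosome III from 8768311 to 8769255 on the plus strand (WBGene00019800) and has 618 bases of exon. The DMSO libraries stood at 163 and 109 CPM and the BPTMC libraries at 125, 107 and 72.1 CPM. DMSO replicate 1 was the highest and BPTMC replicate 3 the lowest, with DMSO replicate 2 and BPTMC replicate 2 nearly level. From 136 ± 38.1 CPM (SD, n = 2) to 101 ± 26.8 CPM (SD, n = 3), the log2 fold change was -0.42 ± 0.39 (edgeR adjusted p = 0.834), with an interval from 0.401-fold to 1.39-fold. It stayed negative in all 15 alternative settings, from -0.64 to -0.11, and never passed the test.

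The 2 DNA-binding proteins moved together from library to library. Centred on each gene's mean over the 5 libraries, the log2 CPM of hmg-5 and mtss-1 differed by a root mean square of 0.22, the second smallest of the 21 pairs among the 7 genes. The smallest was 0.19, for mtss-1 and sir-2.1, and the largest 0.89, for hmg-5 and rpom-1. In counts, hmg-5 stood at 0.818 and 0.572 of mtss-1 with DMSO and 0.882, 0.746 and 0.672 with BPTMC, below 1 in each. The difference between groups in this log2 ratio was 0.15 (two-sided exact permutation p = 0.6, smallest possible 0.1), so it was smaller than the spread between libraries.

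The summed level of the mitochondrial genome's own mRNAs, the product of rpom-1, ran parallel to hmg-5. The 12 mRNAs together stood at 26629 and 15860 CPM in DMSO replicates 1 and 2 and at 26496, 19106 and 11200 CPM with BPTMC replicates 1, 2 and 3, which is the same order of libraries as for hmg-5. Taken singly, ND2, ND5, COX1, COX2 and COX3 were highest in BPTMC replicate 1 and the other mRNAs in DMSO replicate 1. Summed mitochondrial mRNA varied 2.38-fold and hmg-5 2.75-fold over the 5 libraries, but their ratio lay between 200.2 and 255, a 1.27-fold range. By the root mean square difference from mitochondrial mRNA (0.12 for hmg-5), 0.801% of tested genes were closer to it than hmg-5, 4.16% were closer than mtss-1, 4.72% closer than sir-2.1 and 74% closer than rpom-1. The total counts of the libraries stood in the same order, from 24362712 in DMSO replicate 1 to 16531114 in BPTMC replicate 3. Among all tested genes 5.79% had this order of libraries, and among genes with at most 1000 bases of exon, which include hmg-5 and mtss-1, 11.3% had it. The part of depth and gene length in this order was not tested.

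**Figure D2:**
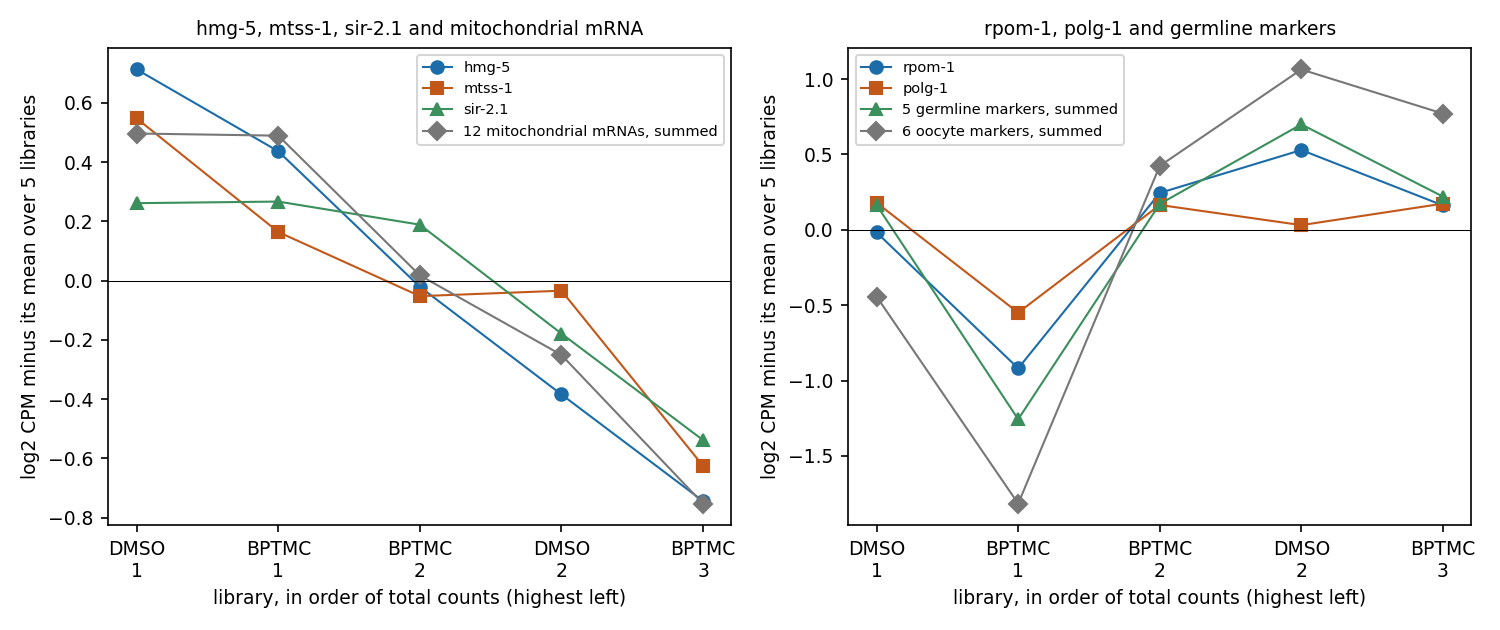
log2 CPM minus its mean over the 5 libraries (vertical axis), with the libraries in order of total counts (horizontal axis); lines join the points of 1 gene or sum. The left panel shows hmg-5, mtss-1 and sir-2.1 highest in DMSO replicate 1 or BPTMC replicate 1 and lowest in BPTMC replicate 3, as was mitochondrial mRNA, and the right panel shows rpom-1, polg-1 and the germline and oocyte markers lowest in BPTMC replicate 1.

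polg-1 encodes the catalytic subunit of DNA polymerase gamma, the enzyme that copies mitochondrial DNA. It lies on chromosome II from 12189789 to 12199962 on the minus strand (WBGene00013258), with 3310 bases of exon. Its level was 5.10 and 4.61 CPM with DMSO and 3.08, 5.05 and 5.08 CPM with BPTMC, from 63 to 114 reads per library. The 4 libraries other than BPTMC replicate 1 were close together, and the 95% Poisson interval of BPTMC replicate 1, 2.37 to 3.94 CPM, covers counting error only and left out the values of the others. The means were 4.86 ± 0.353 CPM (SD, n = 2) and 4.41 ± 1.15 CPM (SD, n = 3), which gave a log2 fold change of -0.14 ± 0.46 (edgeR adjusted p = 0.907), with an interval from 0.438-fold to 1.88-fold. Without BPTMC replicate 1 the direction turned, to a log2 fold change of 0.13.

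rpom-1 encodes the mitochondrial RNA polymerase, which transcribes the mitochondrial genome. It lies on chromosome I from 14552030 to 14565853 on the minus strand (WBGene00013680), with 3638 bases of exon. The level was 16.3 and 23.9 CPM with DMSO and 8.75, 19.6 and 18.5 CPM with BPTMC. The lowest library was BPTMC replicate 1 and the highest DMSO replicate 2, with the other BPTMC libraries between the DMSO libraries. From 20.1 ± 5.33 CPM (SD, n = 2) to 15.6 ± 5.97 CPM (SD, n = 3), the log2 fold change was -0.36 ± 0.47 (edgeR adjusted p = 0.834), with an interval from 0.371-fold to 1.63-fold. Without BPTMC replicate 1 it was 0.016.

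rpom-1 and the germline markers shared their highest and lowest libraries. The summed level of 5 germline markers (gld-1, glp-1, pgl-1, glh-1 and him-3) was 563 and 816 CPM with DMSO and 210.3, 566 and 585 CPM with BPTMC. The 6 oocyte markers (oma-1, oma-2, puf-5, cpg-1, cpg-2 and rme-2) stood at 1460 and 4148 CPM with DMSO and at 564, 2662 and 3387 CPM with BPTMC. The 5 sperm markers went the other way, at 11.9 and 5.73 CPM with DMSO and 53.8, 6.07 and 30.8 CPM with BPTMC, highest in BPTMC replicate 1. Of the germline markers, him-3 was lowest not in BPTMC replicate 1 (79.6 CPM) but in BPTMC replicate 3 (67.8 CPM). In whole worms, fewer germ cells and less RNA per germ cell cannot be told apart, and the part of either in the level of rpom-1 or polg-1 was not tested. Of all tested genes 29.9% were lowest in BPTMC replicate 1, and of genes with more than 3000 bases of exon, the class of rpom-1 and polg-1, 53% were.

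The level of rpom-1 and that of its product did not run in parallel. The ratio of summed mitochondrial mRNA to rpom-1, in CPM, was 1629 and 664 with DMSO and 3028, 974.7 and 605 in BPTMC, a 5.003-fold range. In BPTMC replicate 1 the polymerase was at its lowest of the 5 libraries and mitochondrial mRNA at its second highest. Of the mRNAs themselves, edgeR, DESeq2 and limma-voom called 0 of 12, with 0 at an unadjusted p under 0.05. By edgeR 11 of the 12 had a negative log2 fold change and the median was -0.20. The median was 0.31 when DMSO replicate 1 was left out and 0.21 when BPTMC replicate 3 was, but -0.63 and -0.62 when DMSO replicate 2 or BPTMC replicate 1 was, so its sign rested on single libraries.

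aak-1 and aak-2 encode the alternative catalytic (alpha) subunits of AMPK; aak-2 is the one best known from lifespan studies in worms. aak-1 lies on chromosome III from 8756990 to 8761090 on the minus strand (WBGene00019801) and aak-2 on chromosome X from 16796087 to 16803398 on the plus strand (WBGene00020142). aak-1 stood at 24.2 and 20.96 CPM with DMSO and at 27.8, 15.4 and 21.6 CPM with BPTMC. Both its highest and its lowest library were BPTMC, replicates 1 and 2. The means were 22.6 ± 2.31 CPM (SD, n = 2) and 21.6 ± 6.20 CPM (SD, n = 3), which gave a log2 fold change of -0.064 ± 0.41 (edgeR adjusted p = 0.954) with an interval from 0.503-fold to 1.82-fold. Its sign turned when DMSO replicate 1 (0.031), BPTMC replicate 2 (0.19) or BPTMC replicate 3 (0.053) was left out.

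aak-2 was at 7.25 and 9.64 CPM with DMSO and at 11.4, 8.32 and 11.3 CPM with BPTMC. BPTMC replicates 1 and 3 lay above both DMSO libraries and BPTMC replicate 2 between them. It was the only one of the 7 genes with a positive log2 fold change, 0.29 ± 0.41, from 8.45 ± 1.68 CPM (SD, n = 2) to 10.3 ± 1.74 CPM (SD, n = 3) (edgeR adjusted p = 0.84). The interval ran from 0.634-fold to 2.36-fold, and the sign was positive in all 15 alternatives, between 0.088 and 0.54, none of which passed the test.

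Set against each other within a library, which does not depend on scaling, aak-1 made up 77.0% of the reads of both catalytic genes in DMSO replicate 1 (exact 95% binomial interval 73.7% to 80.0%) and 68.5% in DMSO replicate 2 (64.8% to 72.1%). The share was 70.9% (67.7% to 74.1%), 64.9% (60.4% to 69.3%) and 65.7% (61.9% to 69.3%) in BPTMC replicates 1, 2 and 3. BPTMC replicate 1 lay between the DMSO libraries and the other BPTMC libraries lay below both. The mean log2 ratio of aak-1 to aak-2 was 1.43 with DMSO and 1.04 in BPTMC, a difference of -0.39 (two-sided exact permutation p = 0.3, smallest possible 0.1). It was -0.083 without DMSO replicate 1 and -0.70 without DMSO replicate 2.

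Counts of both catalytic genes may include reads of a neighbour on the other strand, since the counts behaved as unstranded. The last 100 bases of aak-1 overlap the end of sma-2, a Smad gene of body-size signalling, which had 1238 and 961 reads with DMSO and 973, 974 and 697 in BPTMC, against 541 and 446 and against 569, 302 and 425 for aak-1. The last 78 bases of aak-2 overlap mec-4, a touch-receptor channel gene, which had 12 to 48 reads per library against 162 to 233. Both overlaps lie at the 3′ end, the part that a 3′ tag library reads. How many reads fell in the overlaps cannot be told from counts per gene. The binomial intervals on the aak-1 share do not cover such reads.

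None of the other AMPK subunits passed the test. Of the 9 subunit genes edgeR, DESeq2 and limma-voom called 0, with 0 at an unadjusted p under 0.05, and the median log2 fold change was 0.10 (-0.020 with DMSO replicate 2 left out, -0.036 with BPTMC replicate 1 left out, 0.27 with BPTMC replicate 2 left out and 0.24 with BPTMC replicate 3 left out). The beta subunit aakb-1 was low, at 2.69 and 2.49 CPM with DMSO and 4.45, 4.13 and 3.51 CPM with BPTMC, a log2 fold change of 0.64 ± 0.46. It was 1 of 9 subunits whose BPTMC libraries all lay above DMSO, where 13.4% of tested genes did, and 0 of 9 lay below. The other beta subunit, aakb-2, was at 20.3 ± 1.71 and 18.4 ± 6.16 CPM. Of the gamma subunits, which bind adenine nucleotides, aakg-5 stood at 41.6 ± 16.6 CPM with DMSO and 29.5 ± 11.5 CPM with BPTMC and aakg-1 at 17.1 ± 2.37 and 23.1 ± 10.5 CPM. aakg-2, aakg-3 and aakg-4 averaged under 5 CPM, with log2 fold changes of -0.076 ± 0.50, 0.10 ± 0.66 and 0.35 ± 0.77.

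sir-2.1 encodes the worm's best-studied sirtuin, the relative of mammalian SIRT1. It lies on chromosome IV from 10363318 to 10366229 on the minus strand (WBGene00004800), with 2033 bases of exon, and its last 22 bases overlap ugt-59, which had 23 to 62 reads per library against 433 to 856. Its level was 38.3 and 28.2 CPM with DMSO and 38.5, 36.4 and 22.0 CPM with BPTMC. The highest DMSO and the highest BPTMC library were level, and BPTMC replicate 3 was the lowest. The log2 fold change was -0.043 ± 0.41, from 33.3 ± 7.13 CPM (SD, n = 2) to 32.3 ± 8.98 CPM (SD, n = 3) (edgeR adjusted p = 0.971), with an interval from 0.508-fold to 1.85-fold. Leaving out DMSO replicate 1 made it 0.18, and leaving out BPTMC replicate 3 made it 0.26.

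The other 3 sirtuins were lower in level and also overlapped between groups. sir-2.4 stood at 10.7 ± 5.47 CPM with DMSO and 11.03 ± 2.87 CPM with BPTMC, sir-2.2 at 7.34 ± 2.59 and 8.84 ± 4.38, and sir-2.3 at 1.88 ± 0.260 and 1.93 ± 0.473. Over the 19 sirtuin and NAD genes tested, edgeR, DESeq2 and limma-voom called 0, with 0 at an unadjusted p under 0.05, and the median was -0.19 (0.070 without BPTMC replicate 3, and between -0.22 and -0.073 without each other library). The smallest p-values belonged to qns-1, an NAD+ synthetase, and pnc-1, a nicotinamidase. qns-1 was at 604 and 571 CPM with DMSO and at 253, 592 and 153 CPM with BPTMC, a log2 fold change of -0.82 ± 0.54, with BPTMC replicate 2 inside the DMSO range. pnc-1 had a log2 fold change of -0.74 ± 0.51.

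**Figure D3:**
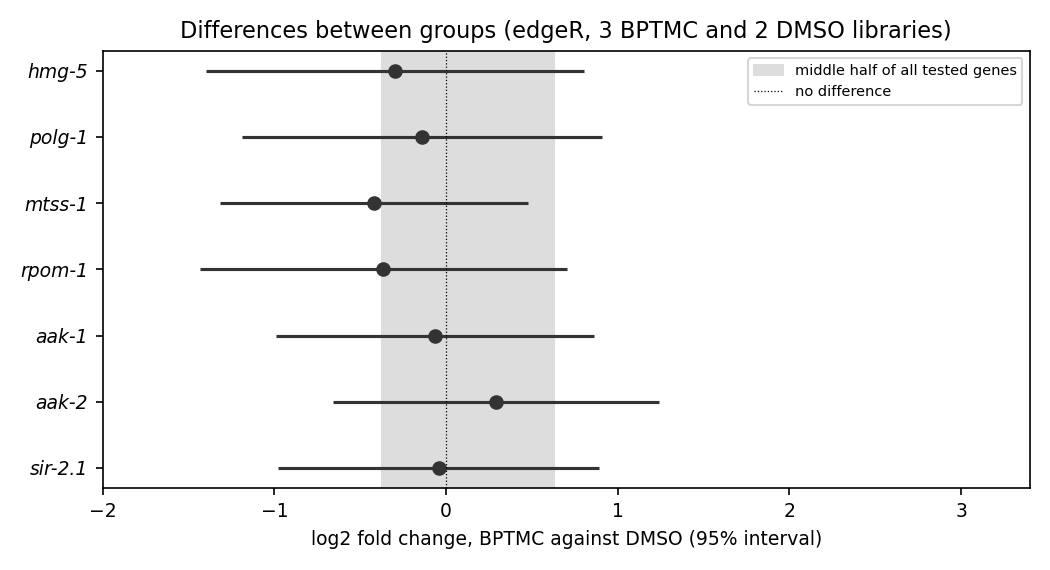
log2 fold change of BPTMC against DMSO (horizontal axis) for each of the 7 genes (vertical axis), with 95% intervals as lines; the grey band is the interquartile range over all tested genes. Every interval includes 0, and aak-2 at 0.29 is the only estimate above it.

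Other genes were listed under mitochondrial DNA maintenance, such as repair enzymes, nucleotide supply and nucleoid-associated proteases. The list was not limited to genes that act only on mitochondrial DNA. Of its genes, 18 of 19 tested had negative estimates, where 54.5% of all tested genes did, with a median of -0.37. None was called by edgeR, DESeq2 or limma-voom, and 0 had an unadjusted p under 0.05. ung-1, the uracil-DNA glycosylase of base excision repair, was at 47.9 and 57.5 CPM with DMSO and 24.9, 37.1 and 33.4 CPM with BPTMC, a log2 fold change of -0.73 ± 0.37 (edgeR adjusted p = 0.732). The prohibitin gene phb-1 had -0.61 ± 0.48. In 4 of 19 genes, ung-1, phb-2, nth-1 and tfbm-1, every BPTMC library lay below every DMSO library, where 9.96% of tested genes did; the last 3 are named after their values were seen. The median of the list rested in part on BPTMC replicate 1: without it the median was -0.14 and 14 of 19 estimates were negative. Estimates were also negative in 5 of 5 germline markers (median -0.61) and in 6 of 6 oocyte markers (median -0.40). Without BPTMC replicate 1 these medians were -0.19 and 0.17. With DMSO replicate 2 left out they were -0.44 and 0.49, and that of the maintenance list was -0.27. In both settings the oocyte median turned sign, and the germline and list medians stayed negative. In BPTMC replicate 1 the median log2 CPM, centred on each gene's mean over the 5 libraries, was -0.51 for the maintenance genes, -1.58 for the germline markers and -1.85 for the oocyte markers, and the part of these cells in the list was not tested. twnk-1, the gene of the Twinkle helicase, had 0.0940 to 0.356 CPM and did not pass the filter.

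Genes that process or translate mitochondrial RNA had negative estimates in 17 of 17 tested, against 54.5% of all tested genes, with a median of -0.42, and again 0 passed by edgeR, DESeq2 or limma-voom, with 0 at an unadjusted p under 0.05. pars-2, a mitochondrial prolyl-tRNA synthetase, was at 31.7 and 26.3 CPM with DMSO and at 18.6, 17.6 and 16.3 CPM with BPTMC, a log2 fold change of -0.73 ± 0.36 (edgeR adjusted p = 0.721). Y105E8A.20, the row of mars-2, had -0.74 ± 0.39. These were the 2 of 17 whose BPTMC libraries all lay below DMSO, where 9.96% of tested genes did. Without BPTMC replicate 1 this median was -0.14 and 16 of 17 estimates were negative, and with DMSO replicate 2 left out it was -0.24. The centred median of these genes in BPTMC replicate 1 was -0.56, beside the values of -1.58 and -1.85 for germline and oocyte markers there, whose part in this list was not tested either.

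Around AMPK, 23 genes of upstream kinases, the TOR pathway and AMPK targets were tested and 0 were called by edgeR, DESeq2 or limma-voom, and of unadjusted p-values under 0.05 there was 1 among higher genes and 0 among lower ones. That gene was crtc-1, a transcriptional coactivator that AMPK regulates in worms. It was at 2.37 and 3.06 CPM with DMSO and at 14.4, 4.70 and 9.46 CPM with BPTMC, a log2 fold change of 1.81 ± 0.58 (edgeR adjusted p = 0.521). Its BPTMC libraries all lay above DMSO, as in 5 of the 23 genes, where 13.4% of tested genes did; the others, named after their values were seen, were tax-6, mop-25.1, unc-51 and pod-2. sesn-1, the sestrin gene, had -0.98 ± 0.47; it and ragc-1, named after its values were seen, were the 2 of 23 with every BPTMC library below DMSO, where 9.96% of tested genes did. The summed body wall muscle markers (myo-3, unc-54 and unc-15) were at 221 and 216 CPM with DMSO and at 851, 269 and 357 CPM with BPTMC, the same order of BPTMC libraries as crtc-1. Intestinal markers stood at 7150 and 8787 CPM with DMSO and at 20246, 9094 and 13160 CPM with BPTMC. They and the sperm markers had this order of BPTMC libraries too. The summed germline, oocyte, pharynx, neuron and hypodermis markers did not. The part of any of these cells in these differences was not tested.

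The median of this list was -0.16, but became 0.19 when DMSO replicate 2 was left out and 0.12 when BPTMC replicate 1 was, and -0.47 and -0.33 when DMSO replicate 1 or BPTMC replicate 3 was. Of 14 transcriptional and stress regulators tested, edgeR, DESeq2 and limma-voom called 0, with 0 at an unadjusted p under 0.05 by edgeR, and the median of -0.096 lay beside that of all tested genes. Leaving out DMSO replicate 2 moved it to 0.30, BPTMC replicate 1 to 0.18, DMSO replicate 1 to -0.28 and BPTMC replicate 2 to -0.29. pqm-1, a zinc finger factor of stress and metabolism, had the smallest p, with 15.0 and 6.35 CPM with DMSO and 59.4, 9.14 and 28.6 CPM with BPTMC, a log2 fold change of 1.60 ± 0.76. hlh-30, the worm TFEB, had 0.75 ± 0.42.

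**Figure D4:**
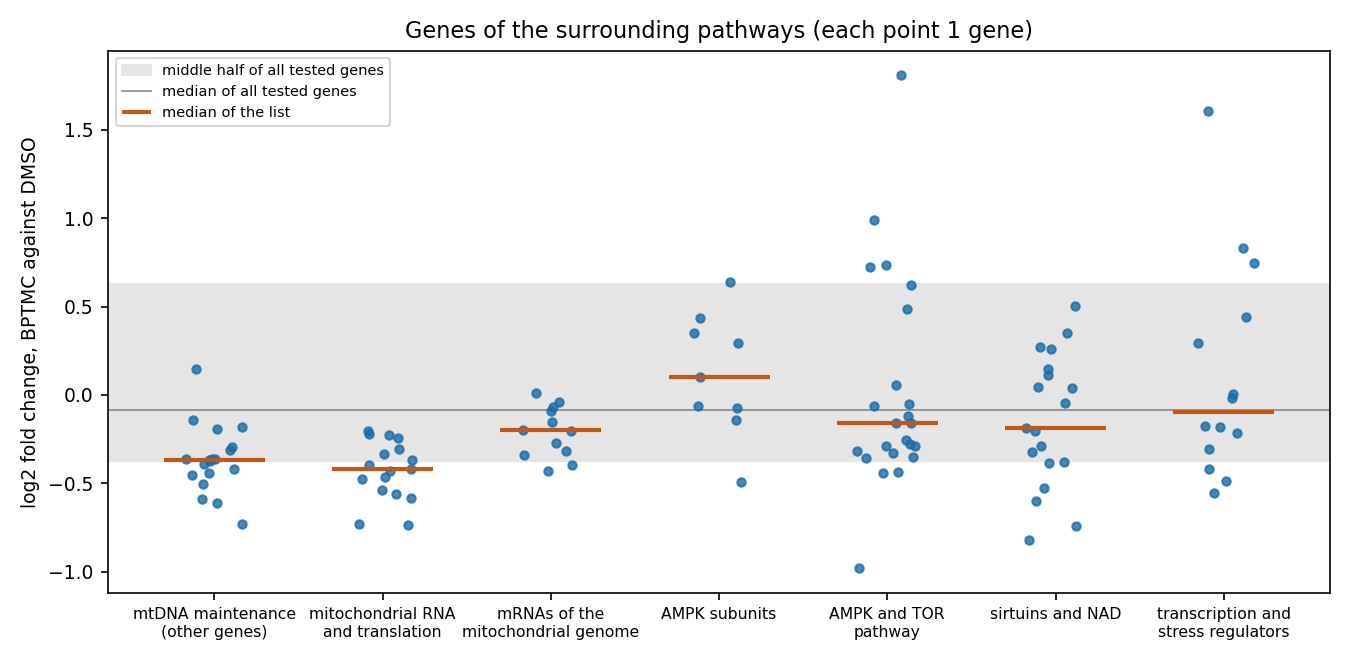
log2 fold change of BPTMC against DMSO (vertical axis) for the tested genes of 7 lists (horizontal axis), each point 1 gene; orange bars are the list medians, the grey band the interquartile range and the grey line the median of all tested genes. The 2 lists on mitochondrial DNA maintenance and mitochondrial RNA have medians of -0.37 and -0.42, below the medians of the other lists.

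Genes whose profile over the 5 libraries was nearest to each of the 7 were picked among tested genes with a mean of at least 10 CPM, by the root mean square difference of centred log2 CPM. The nearest to hmg-5 were lsm-7 (0.021), T01C3.2 (0.04) and blos-9 (0.042), and those nearest to mtss-1 were Y53F4B.14 (0.013), mdt-18 (0.014) and R07E5.7 (0.02). For rpom-1 they were ekl-5 (0.02), hsp-75 (0.028) and smrc-1 (0.037), and for polg-1 mut-2 (0.062), T10B5.3 (0.073) and pph-6 (0.084). aak-1 lay nearest to idh-2 (0.063), F56D5.6 (0.068) and mak-1 (0.07), aak-2 to got-2.2 (0.048), lin-35 (0.052) and C14B9.11 (0.052), and sir-2.1 to C34B2.8 (0.027), Y47G6A.36 (0.039) and prx-14 (0.042). With 5 libraries many genes share a profile, so such nearness is a description of these libraries.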

How the data were processed

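Each deposited file holds unscaled read counts for gene symbols. The submitters' processing notes name Bowtie2, bedtools and the build WBcel235; which annotation, versions and strand setting the authors chose is not given in the sources used here. Libraries were QuantSeq 3′ libraries from 500 ng of total RNA, per the labels' protocols. BPTMC (n = 3) and DMSO (n = 2) were compared over 14238 genes by edgeR 4.0.16 (R 4.3.3) with the quasi-likelihood test, TMM scaling, a minimum count of 10 in filterByExpr and Benjamini-Hochberg adjustment. The SE was taken as the size of the log2 fold change over the root of its F statistic. DESeq2 1.42.0 and limma-voom (limma 3.58.1) were among the alternatives, and the code was tested on simulated data.

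The genes and lists were chosen with earlier results of these data known. Named genes were the 7 genes, the other AMPK subunits and sirtuins, the 2 of each pathway list with the smallest p, and the 3 nearest profiles. 4 list symbols (clpx-1, suv-3, slirp-1 and wars-2) had no row. Coordinates come from the Ensembl annotation of WBcel235. Intervals on counts and shares cover counting error only.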

Additional observations from a re-analysis of the deposited data

How the results depend on the processing

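With 2 DMSO libraries, the 95% intervals reached from 0.371-fold to 2.36-fold over the 7 genes, and even the tightest, for mtss-1, held 0.401-fold to 1.39-fold. Changes inside these intervals are not excluded, and the intervals are not limits of detection. None of the 7 genes passed in any of the alternatives. The log2 fold change turned sign for hmg-5 under the replicate block (0.043), for aak-1 and sir-2.1 with a filter of 5 CPM in 2 libraries (0.079 and 0.084) and for sir-2.1 under the block (0.19). Over single libraries left out, it ran from -0.69 to 0.34 for hmg-5, -0.23 to 0.13 for polg-1, -0.62 to 0.016 for rpom-1, -0.22 to 0.19 for aak-1 and -0.21 to 0.26 for sir-2.1. polg-1 did not pass the 5 CPM filter and has no value there. The cause was not tested.

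The count of 15 called genes was 2 with total-count scaling, 67 with no filter, 3 with the 5 CPM filter, 241 by DESeq2, 1 by limma-voom, 3 with legacy dispersions, 4 without rRNA genes and 0 to 43 over single libraries left out. Only replicate numbers 1 and 2 are shared between groups and nothing in the labels ties them to a culture. With them as a block 1746 of 14238 tested genes were called (1147 higher, 599 lower), none of the 7. BPTMC replicate 3 has no DMSO partner in that block. The deviations of same-numbered libraries from their group means had correlations of 0.73 and 0.32. With 2 DMSO libraries their deviations are exact opposites, so the cross-numbered pairs are fixed at -0.73 and -0.32. These values therefore cannot show whether the numbers mark shared cultures. Of the lists, the block called lower 3 of 19 genes listed under mitochondrial DNA maintenance and 1 of 19 of sirtuins and NAD. It called higher 1 of 23 around AMPK and TOR, and 1 each way of 14 regulators. It called 0 of the AMPK subunits, of the mitochondrial RNA genes and of the mitochondrial mRNAs. Among markers, 4 of 5 germline and 6 of 6 oocyte genes were called lower. Called higher were 2 of 4 sperm, 2 of 3 muscle, 1 of 6 intestinal and 1 of 4 hypodermis genes, and 0 of the pharynx and neuron genes. The part of these cells in the lists was not tested.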

Other observations

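The order of libraries seen in hmg-5 and mitochondrial mRNA, from DMSO replicate 1 through BPTMC replicates 1 and 2 and DMSO replicate 2 to BPTMC replicate 3, became rarer with exon length. Of tested genes with at most 1000 bases of exon 11.3% had it, of those with 1001 to 2000 bases 4.06%, of those with 2001 to 3000 bases 1.63%, and of longer genes 0.481%. The share of genes that were lowest in BPTMC replicate 1 went the other way, at 13.9%, 29.8%, 48.5% and 53% in the same classes. Exon lengths were known for 93.9% of tested genes. Of the 7 genes, hmg-5 and mtss-1 fall in the shortest class and polg-1 and rpom-1 in the longest.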
